A study of Mus musculus with 28 samples.

Results

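The 7 libraries described here are the RNA pulled down from leptin-receptor cells 10 h after an injection of leptin or vehicle, chosen by their labels for fraction and time as 7 of the 28 libraries of the series. All mice carried LepRb-eGFP-L10a, a reporter that puts an eGFP tag on the ribosomal protein L10a of cells with LepRb, the long form of the leptin receptor. From dissected hypothalami, tagged ribosomes and the messenger RNA on them were captured with antibodies to eGFP (beads), and the supernatant was kept as the depleted fraction. Leptin was given as metreleptin, a leptin analog, at 5 mg/kg intraperitoneally. The groups were 3 leptin libraries of wild-type mice, 1 leptin library of ob/ob mice, 1 vehicle library of wild-type mice and 2 vehicle libraries of ob/ob mice. The ob/ob mice are homozygous for the ob allele of the leptin gene and make no functional leptin, so that their vehicle libraries come from animals without any leptin. Males and females of 10 to 13 weeks were mixed, and food was withdrawn from all of them when the lights came on, immediately before the injection. The protocol calls the vehicle 0.9% saline and the treatment labels call it PBS. The sources used here give neither the strain nor the sex of the mice behind each of these 7 libraries. They also do not say whether 1 library holds tissue of 1 mouse or of several, so p-values measure the spread between these libraries only. Wild-type and ob/ob libraries were sequenced in different runs, which leaves genotype and run inseparable, while leptin and vehicle shared a run within each genotype.

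Leptin is made by fat cells and reports energy stores to the brain. When it binds LepRb, the associated kinase JAK2 phosphorylates the receptor and the transcription factor STAT3, which enters the nucleus and switches on target genes. Among these targets is Socs3, which codes for an inhibitor that binds the receptor complex and damps the signal. In the arcuate nucleus of the hypothalamus LepRb is found on neurons that make the appetite-suppressing precursor proopiomelanocortin (Pomc) and on neurons that make the appetite-stimulating peptides Agrp and Npy.

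Total counts of the 7 bead libraries ranged from 21277982 to 42267040, and replicates of a group differed by far more than counting error. Lepr, the receptor gene (ENSMUSG00000057722; GRCm38 chromosome 4, 101717404 to 101815352), was higher in beads than in the depleted fraction in 7 of 7 lysates, by 2.97-fold to 6.84-fold. Its bead level was 8.79, 9.90 and 11.5 CPM in wild-type leptin libraries and 10.9 CPM in the ob/ob leptin library, against 10.7 CPM in the wild-type vehicle library and 8.85 and 8.79 CPM in ob/ob vehicle libraries. CPM is the usual unit of counts relative to the library's total, here scaled by the TMM method. The groups overlapped, and the leptin effect on Lepr was 0.09 on the log2 scale (SE 0.165, adjusted p = 0.875). Agrp and Npy were 37.1-fold to 57.5-fold and 27.3-fold to 46.2-fold higher in beads, and the astrocyte gene Slc1a2 lower in beads, in the same 7 lysates.

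At 10 h after leptin, Stat3 and Irf9 of the JAK-STAT pathway and the serpin Serpina3h were among the transcripts that were higher in the beads, and markers of astrocytes and oligodendrocytes were among those that were lower. Over both genotypes, with genotype as a term of the fit, 16 genes were called higher and 59 lower at an adjusted p under 0.05, which is 0.0929% and 0.343% of the 17221 genes tested and 0.436% in both directions. In all, 2081 genes had an unadjusted p under 0.05, where 861 would be expected with no difference. Among the 16 were also the antigen presentation regulator Nlrc5, and Asb4, Tbx19 and Cited1, which mark LepRb neurons or were listed as their transcription regulators. In leptin beads all 16 lay above every vehicle library of the same genotype, against 15.4% of all genes tested. Of the 16, 13 lay above all vehicle libraries of both genotypes, against 7% of all genes. The call itself selects for such separation, so these counts describe the genes and add no support to the calls. The calls rest on few libraries: without the ob/ob leptin library 1 gene was called, without the first wild-type leptin library 5, without the wild-type vehicle library 7, without the second ob/ob vehicle library 32 and without the first 188. Of the 16 genes called higher these fits called 0, 1, 3, 3 and 14. With library totals in place of TMM 8 genes were called. With the mean level of glial markers as a covariate edgeR called 0, with 520 genes at an unadjusted p under 0.05, against 861 expected. That covariate did not overlap between leptin and vehicle libraries, so the fit separates it poorly from leptin and cannot decide its part.

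**Figure D1:**
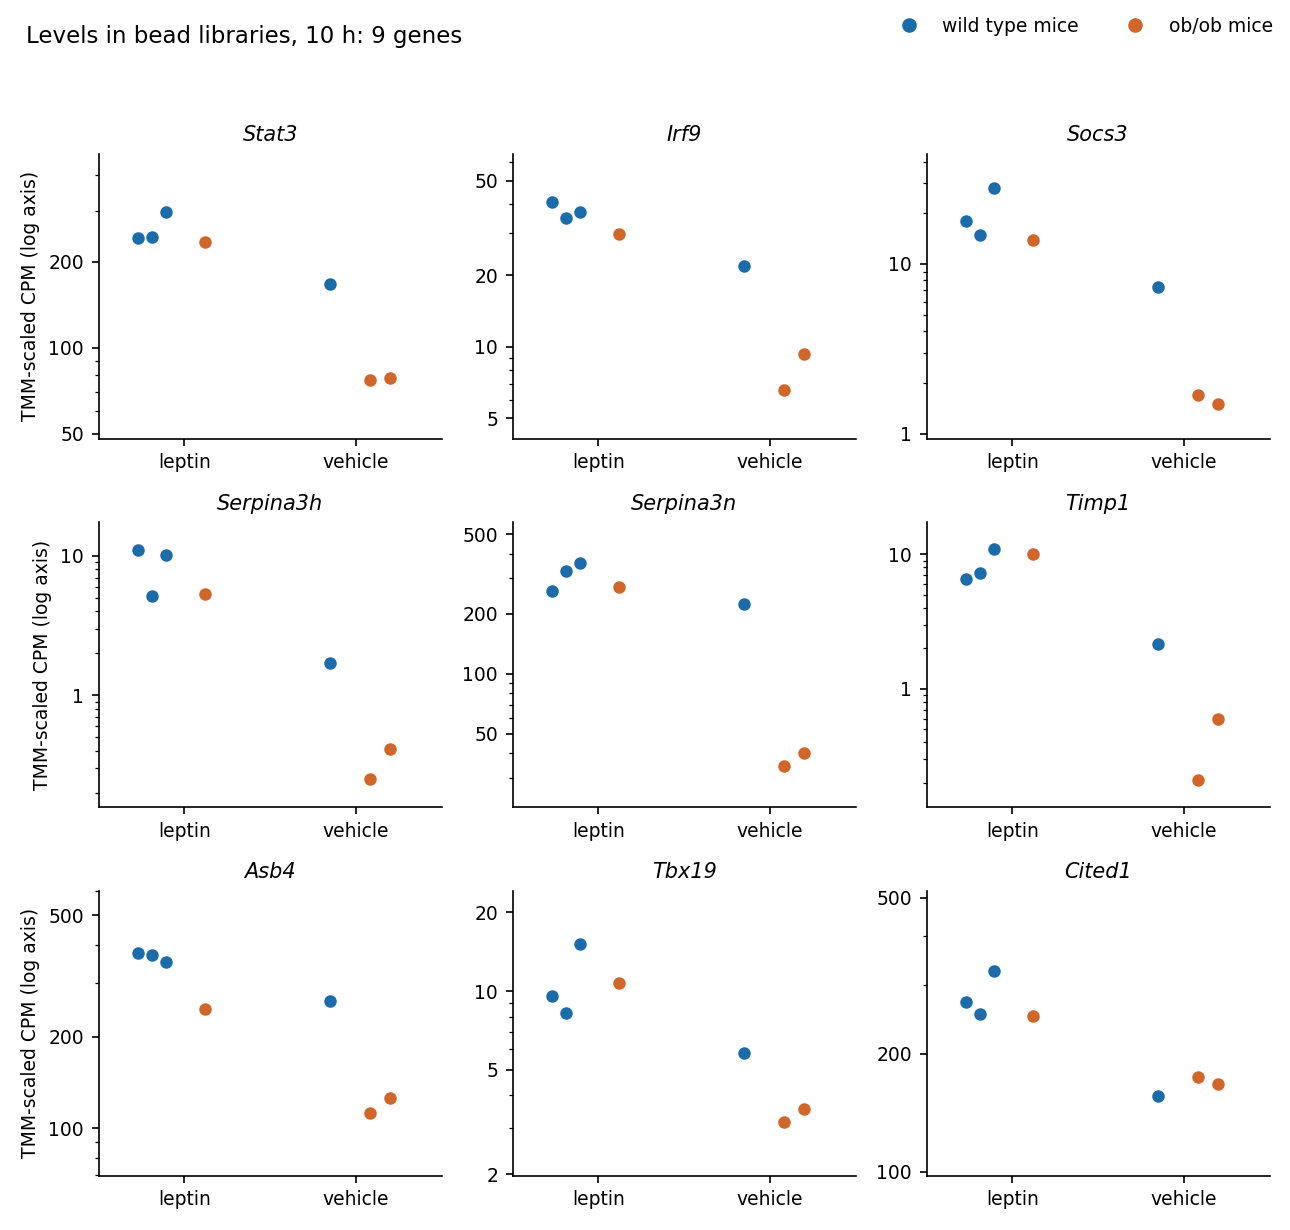
Levels of 9 genes in the 7 bead libraries of 10 h, as TMM-scaled CPM on a log axis, with leptin libraries left and vehicle libraries right; each point is 1 library and the colour gives the genotype. In 8 of the 9 panels, all but Asb4, every leptin library lies above every vehicle library.

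Stat3, the main transcription factor downstream of LepRb (ENSMUSG00000004040; GRCm38 chromosome 11, 100885098 to 100939540, minus strand), had 241, 245 and 298 CPM in wild-type leptin beads and 235 CPM in ob/ob leptin beads. Its vehicle levels were 167 CPM in wild-type beads and 76.9 and 78.3 CPM in ob/ob beads. The 4 leptin libraries lay above all 3 vehicle libraries, and Stat3 rose 2.12-fold (log2 fold change 1.09, SE 0.176, adjusted p = 0.0314). Irf9, which codes for the DNA-binding part of the interferon-activated transcription complex (ENSMUSG00000002325; chromosome 14, 55603571 to 55610030), had 40.6, 34.9 and 36.8 CPM in wild-type leptin beads and 29.9 CPM in ob/ob leptin beads. In vehicle beads it had 21.96 CPM in wild type and 6.58 and 9.35 CPM in ob/ob. Again no leptin library reached down to a vehicle library, and Irf9 rose 2.42-fold (log2 1.28, SE 0.221, adjusted p = 0.0367). In ob/ob beads the estimates were 1.60 for Stat3 and 1.91 for Irf9, and in wild-type beads 0.65 (SE 0.176) and 0.77 (SE 0.228), neither called there. Without the ob/ob leptin library the estimate over both genotypes was 0.63 for Stat3 (adjusted p = 0.569) and 0.75 for Irf9 (adjusted p = 0.613). Without the wild-type vehicle library it was 1.60 for Stat3 and 1.91 for Irf9. Both also missed the threshold without the first wild-type leptin library (adjusted p = 0.0548 and 0.0963) and without the second ob/ob vehicle library (adjusted p = 0.125 and 0.178). The libraries are unstranded and Stat3 overlaps Stat5a on the other strand, as Irf9 overlaps Rnf31 on its own strand, so reads of the shared stretches cannot be told apart.

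Socs3 (ENSMUSG00000053113; chromosome 11, 117966079 to 117970047, minus strand) had 17.9, 14.9 and 27.9 CPM in wild-type leptin beads and 13.9 CPM in ob/ob leptin beads, against 7.33 CPM in wild-type vehicle beads and 1.69 and 1.50 CPM in ob/ob vehicle beads. All leptin libraries lay above all vehicle libraries. Over both genotypes the effect of 2.14 on the log2 scale missed the threshold (SE 0.379, adjusted p = 0.0758), while in ob/ob beads alone Socs3 rose by 3.13 (SE 0.356, adjusted p = 0.0061). In wild-type beads it stood at 1.46 (SE 0.337) and was not called. Of 29 tested genes of JAK-STAT signalling and its feedback 2 rose, Irf9 and Stat3, none fell, and the median of the list was 0.17, against 0.01 over all genes tested. Leptin levels lay above the vehicle levels of the same genotype for 15 of the 29, or 51.7%, against 15.4% of all genes tested. These included the kinase gene Jak3 at 0.85 (adjusted p = 0.127) and Socs1, a further feedback inhibitor, at 0.95 (adjusted p = 0.265), neither of which passed. The receptor-side kinase gene Jak2 stood at -0.03, and Ptpn1, a phosphatase that acts on JAK2, at 0.26. Of 16 tested genes of gp130-type cytokine receptors and Lepr none was called.

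Several protease inhibitor genes differed by large factors, of which Serpina3h passed the test. Serpina3h (ENSMUSG00000041449; chromosome 12, 104247905 to 104253669), annotated as a transcribed pseudogene of the Serpina3 cluster, had 10.9, 5.18 and 10.2 CPM in wild-type leptin beads and 5.33 CPM in ob/ob leptin beads. It had 1.71 CPM in wild-type vehicle beads and 0.253 and 0.411 CPM in ob/ob vehicle beads. It rose 7.65-fold (log2 2.94, SE 0.392, adjusted p = 0.0271). Leaving out 1 library gave 2.35 without the ob/ob leptin library to 3.97 without the wild-type vehicle library, and a call in 4 of 7 fits. Serpina3n, which codes for a secreted inhibitor of serine proteases (ENSMUSG00000021091; chromosome 12, 104406729 to 104414329), had 258, 325 and 360 CPM in wild-type leptin beads and 271 CPM in ob/ob leptin beads, against 222 CPM in wild-type vehicle beads and 34.3 and 40.0 CPM in ob/ob vehicle beads. Its effect over both genotypes was 1.56 (SE 0.574, adjusted p = 0.408) and did not pass. Timp1, an inhibitor of matrix metalloproteinases (ENSMUSG00000001131; chromosome X, 20870166 to 20874735), had 6.59, 7.28 and 10.9 CPM in wild-type leptin beads and 10.1 CPM in ob/ob leptin beads, against 2.16 CPM in wild-type vehicle beads and 0.211 and 0.599 CPM in ob/ob vehicle beads. It did not pass over both genotypes either (log2 2.93, SE 0.572, adjusted p = 0.123). Timp1 overlaps Syn1 on the other strand, so in these unstranded libraries reads of the shared stretch cannot be told apart. Of the 27 listed acute phase, serpin and protease inhibitor genes 16 were tested, 1 rose and none fell. Of these 16 genes 10 had positive and 6 negative values. The median was 0.39, with 0.31 without the first wild-type leptin library and 0.97 without the first ob/ob vehicle library. The members Serpina3c, Serpina3f, Serpina3i and Serpina3m stood at 1.50, 1.90, 1.68 and 1.75 and did not pass. Reads could be shared among the near-identical Serpina3 paralogs, and the division of their counts is uncertain.

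The remaining genes called higher included 2 listed markers of LepRb neurons. Asb4, a SOCS box protein of a ubiquitin ligase (ENSMUSG00000042607; chromosome 6, 5383386 to 5433022), had 377, 369 and 351 CPM in wild-type leptin beads and 246 CPM in ob/ob leptin beads, against 262 CPM in wild-type vehicle beads and 112 and 126 CPM in ob/ob vehicle beads. The ob/ob leptin library lay below the wild-type vehicle library, so the groups separated only within a genotype (log2 0.75, SE 0.128, adjusted p = 0.0314). Tbx19, a T-box transcription factor known from pituitary Pomc cells, rose by 1.25 (SE 0.242, adjusted p = 0.0415), and Cited1, a coactivator that binds CBP and p300, by 0.71 (SE 0.129, adjusted p = 0.035). Cited1 had 271, 252 and 326 CPM in wild-type leptin beads and 249 CPM in ob/ob leptin beads, against 156 CPM in wild-type vehicle beads and 175 and 168 CPM in ob/ob vehicle beads. Among the 16 genes called higher it is 1 of 2 whose estimate was smaller in ob/ob beads (0.54) than in wild-type beads (0.85). The unadjusted p for that difference was 0.246 by edgeR. Of 29 tested markers of LepRb neurons 2 rose (Asb4 and Tbx19), none fell, and the median was 0.10, with 0.04 without the third wild-type leptin library and 0.23 without the first ob/ob vehicle library. Of 24 transcription factors of LepRb neurons and leptin action 2 rose (Cited1 and Stat3) and none fell, with a median of 0.15. Irs4, an insulin receptor substrate that marks such neurons, stood at 0.58 (adjusted p = 0.0892).

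Nlrc5, the transactivator of MHC class I genes, had 2.34, 2.10 and 1.60 CPM in wild-type leptin beads and 2.24 CPM in ob/ob leptin beads, against 0.331 CPM in wild-type vehicle beads and 0.169 and 0.673 CPM in ob/ob vehicle beads (log2 2.48, SE 0.411, adjusted p = 0.0314). It was the 1 called gene of 17 tested antigen presentation genes, whose median was 0.18. Of 30 tested interferon-stimulated genes none was called, and the median was -0.01. Lck, a kinase of T cell receptor signalling, rose by 0.95 (adjusted p = 0.0397), Trbc2, a constant segment of the T cell receptor, by 1.04 (adjusted p = 0.0415), and Traf3ip3, which binds the adaptor TRAF3, by 1.76 (adjusted p = 0.0314). For 12 other T cell genes, listed after these values were seen, 4 were tested and none was called, and the summed level was 3.37 to 3.86 CPM in leptin beads and 3.25 to 7.28 CPM in vehicle beads. Their defining members Cd3d, Cd3e and Cd3g had 8, 20 and 2 counts in all 7 libraries together. Further genes that rose were Cd24a, a surface glycoprotein (1.05), Parp3, an ADP-ribosyltransferase of DNA repair (1.22), Camk1, a calcium-dependent kinase (0.77), Vwa5a (1.18 in ob/ob and 0.85 in wild-type beads, adjusted p = 0.0246 over both), Togaram2 (0.86) and the antisense transcript Gm13010 (3.91), whose mean was under 1 CPM. On the other strand Parp3 overlaps Rrp9, Camk1 overlaps Ogg1, Nlrc5 overlaps 9330175E14Rik, Traf3ip3 overlaps A130010J15Rik and Gm15872, and Togaram2 overlaps Gm15641.

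The peptides of the appetite circuit did not pass. Pomc had 797, 868 and 1168 CPM in wild-type leptin beads and 161 CPM in ob/ob leptin beads, against 695 CPM in wild-type vehicle beads and 98.8 and 58.1 CPM in ob/ob vehicle beads (log2 0.72, SE 0.223, adjusted p = 0.254). Leptin levels lay above vehicle levels within each genotype, but the ob/ob libraries as a whole lay far below the wild-type ones. In the depleted fraction Pomc had 51.2 CPM in the ob/ob leptin lysate, against 7.9 and 6.6 CPM in ob/ob vehicle lysates. Listed pituitary markers summed to 26.5 CPM in ob/ob leptin beads. They summed to 0.871 to 1.71 CPM in wild-type leptin beads and 1.64 to 2.95 CPM in vehicle beads. Pituitary tissue as a source of Pomc in that lysate was not tested. Agrp, at 118, 134 and 153 CPM in wild-type leptin beads and 595 CPM in ob/ob leptin beads, against 157 CPM in wild-type vehicle beads and 528 and 707 CPM in ob/ob vehicle beads, had an effect of -0.14 (SE 0.136, adjusted p = 0.714). Npy stood at 0.00 (SE 0.152, adjusted p = 0.998) and Cartpt, which codes for a further appetite-suppressing peptide, at 0.01 (SE 0.398, adjusted p = 0.997). Of 29 tested feeding neuropeptides none was called, and the median was 0.00.

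Taken genotype by genotype, the called genes were fewer and the estimates differed in size. In ob/ob beads 7 genes were called, 0.0406% of those tested, all higher: Serpina3n, Timp1, Stat3, Socs3, Irf9, Serpina3i and Serpina3h. They are 3 members of the JAK-STAT list and 4 of the acute phase list. Serpina3n had a log2 fold change of 2.87 (SE 0.202, adjusted p = 0.000125), Timp1 of 4.60 (SE 0.46, adjusted p = 0.0031), Serpina3i of 3.37 (SE 0.412, adjusted p = 0.00857), Stat3 of 1.60 (SE 0.174, adjusted p = 0.00514) and Irf9 of 1.91 (SE 0.231, adjusted p = 0.00857). This contrast sets 1 leptin library against 2 vehicle libraries, and the lone library is assumed to vary like the groups with replicates. Without the first ob/ob vehicle library 50 genes were called in ob/ob beads, without the second 12, and without the third wild-type leptin library 4. In wild-type beads, with 3 leptin libraries against 1 vehicle library, 1 gene was called, 0.00581% of those tested, and it fell: Scn4b. Without the third wild-type leptin library it no longer passed (log2 -1.78, adjusted p = 0.0998). With an unadjusted p under 0.05 there were 748 genes in ob/ob and 1055 in wild-type beads, against 861 expected in each with no difference. DESeq2 called 48 genes in ob/ob and 34 in wild-type beads.

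The levels of the 7 genes called in ob/ob beads are given across genotypes as a description, since they were picked by the same ob/ob values. Over the 7 genes the median ratio of the ob/ob to the wild-type level was 0.85 under leptin and 0.195 under vehicle. Under leptin it ran from 0.608 (Serpina3h) to 1.22 (Timp1), and under vehicle from 0.138 (Serpina3i) to 0.465 (Stat3). For Socs3 the ob/ob level was 0.688 times the wild-type level under leptin and 0.217 times under vehicle, and for Stat3 it was 0.899 times under leptin and 0.465 times under vehicle. Genotype and sequencing run cannot be told apart in these ratios. The difference of the leptin effect, ob/ob minus wild type, was called for 1 gene of 17221 (0.00581%), Serpina3n, at 2.37 on the log2 scale (SE 0.274, adjusted p = 0.029), from 2.87 in ob/ob beads and 0.50 in wild-type beads (SE 0.201). It missed the threshold without the third wild-type leptin library (adjusted p = 0.13) and without the second ob/ob vehicle library (adjusted p = 0.556). An unadjusted p under 0.05 for this difference was seen for 215 genes, fewer than the 861 expected with no difference. Of the 16 genes called higher over both genotypes 14 had the larger estimate in ob/ob beads, with medians of 1.49 in ob/ob and 0.85 in wild-type beads. The 59 genes called lower had medians of -1.01 in ob/ob and -1.01 in wild-type beads.

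**Figure D2:**
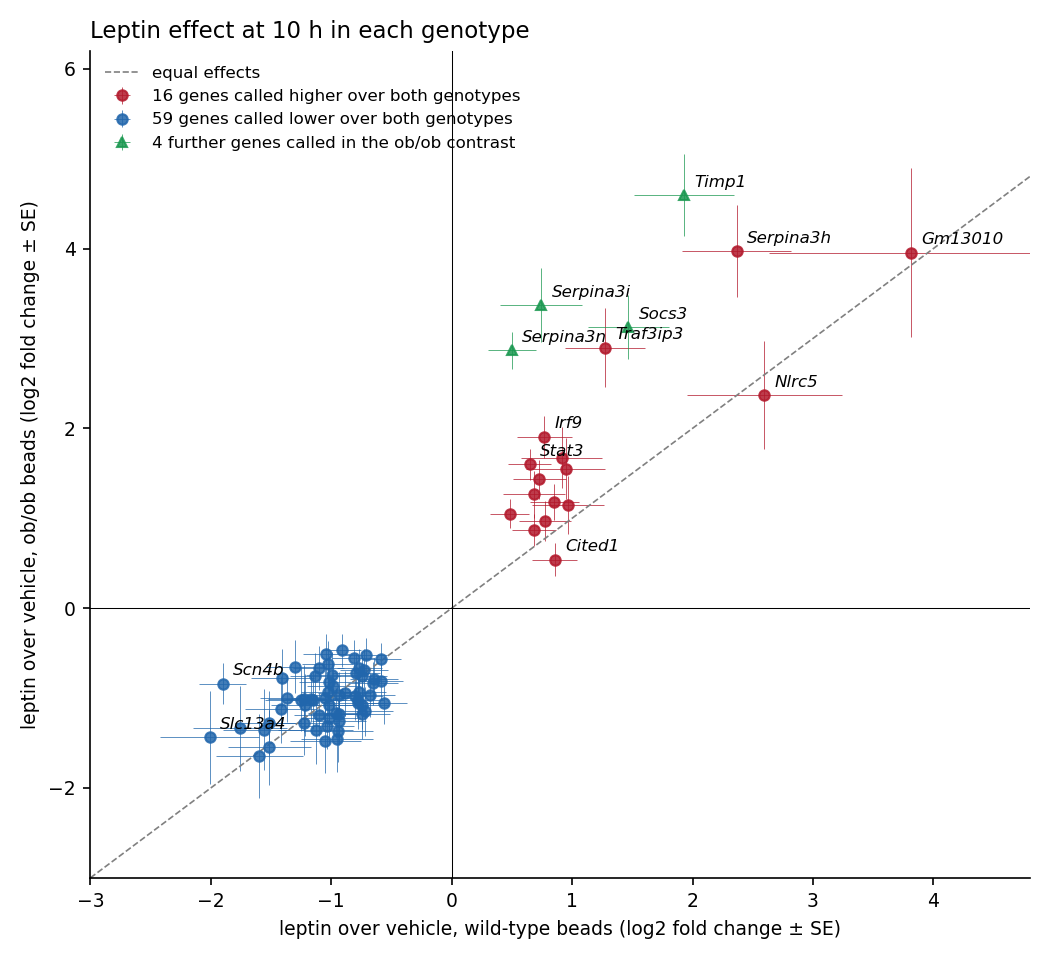
Leptin effect in ob/ob beads (y axis) and in wild-type beads (x axis) for the 75 genes called over both genotypes and 4 further genes called in the ob/ob contrast, as log2 fold change with its SE; the dashed line marks equal effects. Of the 16 red points 14 lie above the line, and Serpina3n lies at 2.87 in ob/ob and 0.50 in wild-type beads.

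To show the stretch next to the start site of the genes that separate leptin from vehicle most in ob/ob beads, RefSeq promoter windows (build GRCm38.p6, 250 bases before to 50 after the start) were searched on both strands for TTCNNNGAA, the palindrome that STAT dimers bind. Of the 7 genes 6 had a window, and those of Socs3 and Serpina3i held a match, at 154 and 102 bases before the RefSeq start. Over all 27025 genes with a window 9.55% held a match. The RefSeq start of Socs3 lies inside the gene interval given above, which comes from another annotation. Its window is therefore within that annotated gene and not upstream of it. The 250 bases before the start are printed for these 2 genes, 5′ to 3′ on the strand of the gene, with the match in capitals: Socs3 from chr11:117969367-117969616 (minus strand) and Serpina3i from chr12:104262872-104263121 (plus strand).
Socs3: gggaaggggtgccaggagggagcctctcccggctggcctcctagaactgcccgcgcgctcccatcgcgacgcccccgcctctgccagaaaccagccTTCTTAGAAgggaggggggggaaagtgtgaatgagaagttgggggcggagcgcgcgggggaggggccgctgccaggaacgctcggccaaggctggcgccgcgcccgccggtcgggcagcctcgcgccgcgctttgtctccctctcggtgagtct
Serpina3i: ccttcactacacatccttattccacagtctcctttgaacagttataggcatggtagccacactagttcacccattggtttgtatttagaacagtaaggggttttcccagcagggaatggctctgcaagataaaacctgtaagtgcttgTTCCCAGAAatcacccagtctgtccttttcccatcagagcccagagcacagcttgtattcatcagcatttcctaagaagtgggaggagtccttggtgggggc
Of the 16 genes called higher over both genotypes 10 had a window, and 1 of them, Gm13010, held a match. GAAANNGAA, a core of the interferon response element, TGACGTCA, the cyclic AMP response element, and TGACTCA, the AP-1 element, were in none of these 10, against 9.76%, 2.03% and 5.95% of all genes. Of the 59 genes called lower 43 had a window, and 10 of these (23.3%) held GAAANNGAA. TTCNNNGAA, TGACGTCA and TGACTCA were in 9.3%, 2.33% and 6.98% of the 43. These shares were not tested. A match is a string of letters, and its absence says only that these letters are not in this window.

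Among the genes that fell were markers of astrocytes and of myelin-forming oligodendrocytes. In leptin beads all 59 lay below every vehicle library of the same genotype, against 14% of all genes tested, and 55 below all vehicle libraries, against 7.8%. These counts too are a description, since the call selects for such separation. Of the 59, 10 belonged to the lists of astrocyte, oligodendrocyte or microglia markers. In the oligodendrocyte list 6 of 12 fell (among them Mal, Mog, Ugt8a, Opalin and Cldn11) with a median of -0.82 and in the astrocyte list 4 of 12 (Slc1a2, Slc4a4, S100b and Ntsr2) with a median of -0.81. None of 12 microglia markers was called, although all 12 had negative values, with a median of -1.05. Mal, a proteolipid of compact myelin (ENSMUSG00000027375; chromosome 2, 127633226 to 127656695), had 44.2, 57.8 and 49.6 CPM in wild-type leptin beads and 61.9 CPM in ob/ob leptin beads, against 114 CPM in wild-type vehicle beads and 98.8 and 150.2 CPM in ob/ob vehicle beads (log2 -1.10, SE 0.152, adjusted p = 0.0246). Slc1a2, the main astrocytic glutamate transporter, had 64.0, 92.6 and 69.3 CPM in wild-type leptin beads and 84.8 CPM in ob/ob leptin beads, against 139 CPM in wild-type vehicle beads and 138 and 190 CPM in ob/ob vehicle beads (log2 -0.92, SE 0.154, adjusted p = 0.0314). Neither gene overlapped between the groups. Apod, a lipid carrier of glia, fell by 1.16, and Ednrb, an endothelin receptor of astrocytes, by 1.25.

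**Figure D3:**
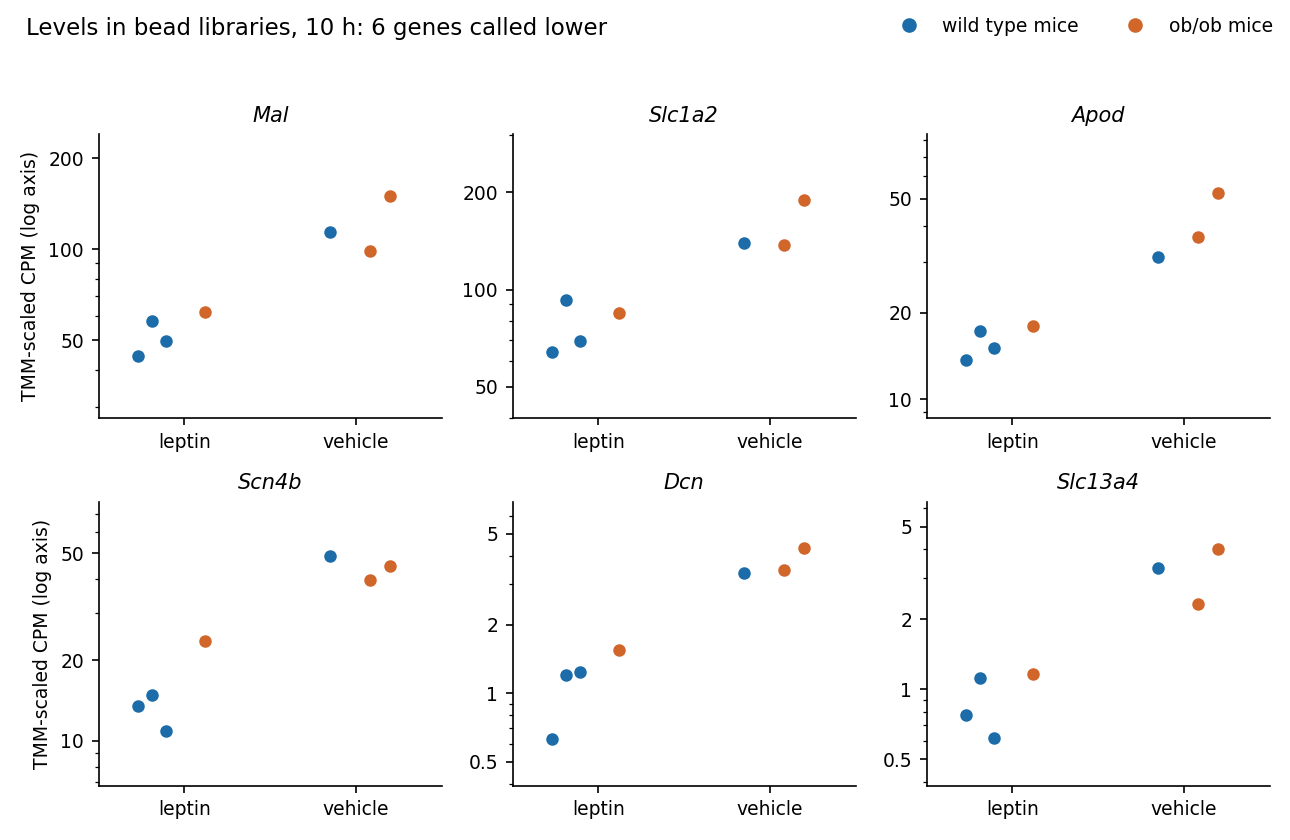
Levels of 6 genes called lower in the 7 bead libraries of 10 h, as TMM-scaled CPM on a log axis, with leptin libraries left and vehicle libraries right; each point is 1 library and the colour gives the genotype. In all 6 panels every leptin library lies below every vehicle library.

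Other genes that fell were outside the glial lists. Scn4b, a sodium channel subunit of striatal neurons (ENSMUSG00000046480; chromosome 9, 45138395 to 45154152), had 13.5, 14.9 and 10.9 CPM in wild-type leptin beads and 23.6 CPM in ob/ob leptin beads, against 48.8 CPM in wild-type vehicle beads and 39.8 and 44.7 CPM in ob/ob vehicle beads (log2 -1.42, SE 0.197, adjusted p = 0.0271). In wild-type beads alone it fell by 1.90 (SE 0.195, adjusted p = 0.00791). Of 16 forebrain genes, listed after these values were seen, 3 fell, among them Scn4b and Bcl11b, and the median was -0.62. Their median in the depleted fraction of the same lysates was -0.96. Their summed level was 427 to 467 CPM in leptin beads, against 902 CPM in wild-type vehicle beads and 480 and 624 CPM in ob/ob vehicle beads. Without the wild-type vehicle library none of the 16 was called and the median was -0.48, and without the ob/ob leptin library it was -1.01. Slc13a4, a sulfate transporter, fell by 1.77, Dcn, the matrix proteoglycan decorin, by 1.58, and Spp1, the secreted protein osteopontin, by 1.53, each with under 5 CPM in the wild-type vehicle library. Crym, a thyroid hormone binding protein and the 1 called member of 12 ependymal and tanycyte markers, fell by 1.41. Of 21 glucocorticoid and fasting genes 1 fell, Gpd1, which codes for glycerol-3-phosphate dehydrogenase, by 0.90. In leptin beads 9 of these 21 genes, or 42.9%, lay below every vehicle library of the same genotype, against 14% of all genes tested.

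Markers of other cells moved with the treatment. Averaged over 36 glial markers, log2(CPM + 1) was 3.70 to 3.96 in leptin beads and 4.37 to 4.88 in vehicle beads, without overlap. Transcripts of the mitochondrial genome, which are translated inside mitochondria and not on the tagged ribosomes, took 0.012% to 0.0254% of the counts in leptin beads and 0.0872% to 0.505% in vehicle beads, again without overlap. The forebrain genes had means of 3.83 to 4.08 in leptin beads and 4.04 to 5.03 in vehicle beads, with overlap. Of the 59 genes called lower, 58 were lower in beads than in the depleted fraction in all 7 lysates, against 28.6% of all genes tested, with a median bead to depleted ratio of 0.302. Of the 16 genes called higher, 10 were higher in beads in all 7 lysates, against 33.5% of all genes, with a median ratio of 3.07. The ratio of Slc1a2 was 0.246 to 0.351 in leptin lysates and 0.387 to 0.648 in vehicle lysates. With the glial mean as a covariate, which leaves 3 residual degrees of freedom, no gene passed. Since the covariate did not overlap between leptin and vehicle libraries, that fit separates leptin poorly from glial content. Stat3 then stood at 1.26, Irf9 at 1.77, Nlrc5 at 3.91, Asb4 at 0.96 and Scn4b at -1.09, none of them a member of the covariate. In the depleted fraction the median leptin effects were -0.02 for oligodendrocyte, -0.23 for astrocyte and -0.32 for microglia markers. The part of other cells in the calls was not tested. Fewer cells of a type, less RNA per cell and less of that RNA carried into the beads cannot be told apart from bead levels.

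**Figure D4:**
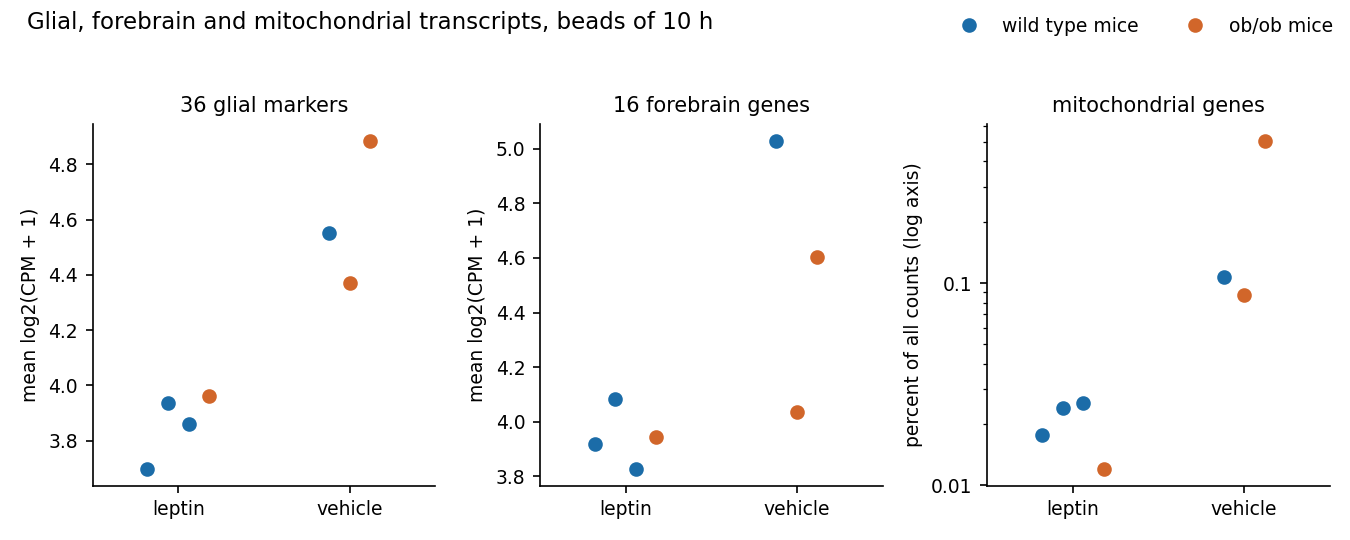
Mean log2(CPM + 1) of 36 glial markers, mean log2(CPM + 1) of 16 forebrain genes and percent of counts from mitochondrial genes (log axis) in the 7 bead libraries of 10 h, with leptin left and vehicle right; each point is 1 library. Leptin libraries span 3.70 to 3.96 and vehicle libraries 4.37 to 4.88 in the glial panel.

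The same lysates gave a depleted library each. Of 18300 genes tested in the depleted fraction 12 were called (0.0656%), and none of the 16 genes called higher in beads was among them. The median estimate of the 16 genes was 1.07 in beads. That of the 15 that could be tested in the depleted fraction was 0.19 there, with all 15 positive. The genes were picked by their bead values, which by itself favours a smaller estimate in other libraries. Stat3 stood at 1.09 in beads and 0.16 in the depleted fraction, Irf9 at 1.28 in beads and 0.31 in the depleted fraction, and Cited1 at 0.71 in beads and 0.28 in the depleted fraction. The 59 genes called lower had a median of -0.33 in the depleted fraction, and 1 of them was called there. The difference of the leptin effect, beads minus depleted fraction, was called for 0 of 18856 genes (0%) by edgeR with the lysate as a block. There 1859 genes had an unadjusted p under 0.05, the smallest adjusted p was 0.197, and DESeq2 called 117 genes. For Stat3 the difference was 0.92 (adjusted p = 0.197) and for Irf9 0.93 (adjusted p = 0.211).

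**Figure D5:**
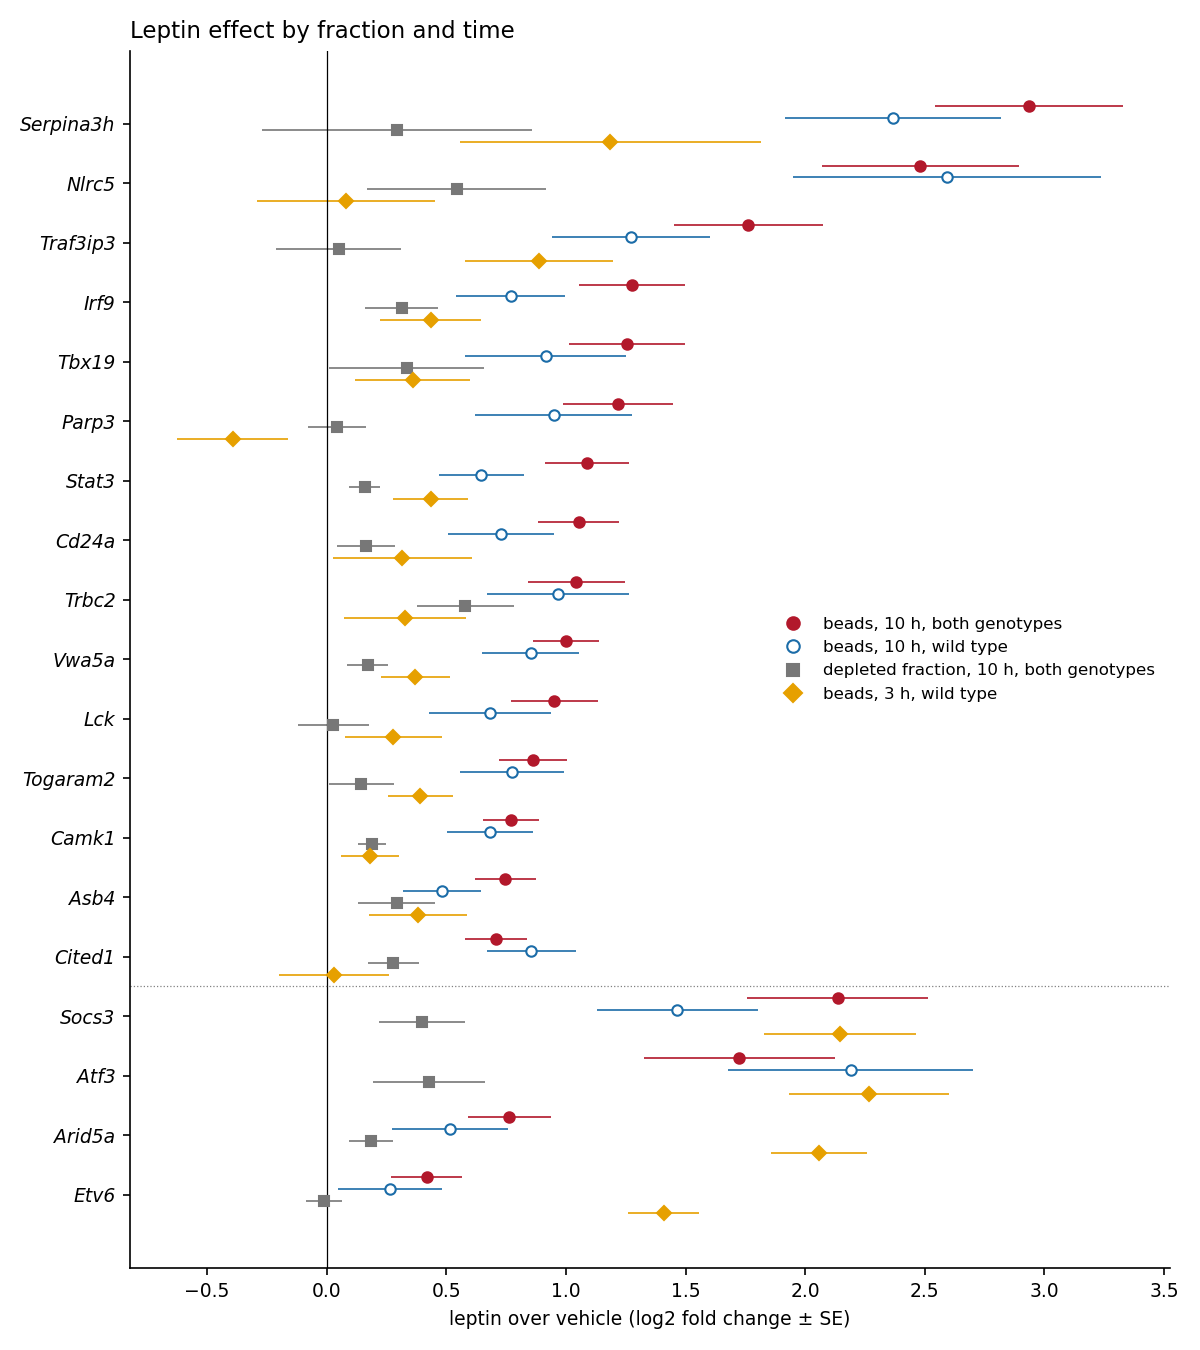
Leptin effect (log2 fold change with its SE) in beads at 10 h over both genotypes (filled circles) and in wild type alone (open circles), in the depleted fraction at 10 h over both genotypes and in wild-type beads at 3 h, for the 15 genes called higher in beads at 10 h with a mean of at least 1 CPM and, under the dotted line, Socs3, Atf3, Arid5a and Etv6. The filled circles of the 15 genes, which were picked by these values, lie right of the depleted and 3 h estimates. Both 10 h bead estimates of Arid5a and Etv6 lie left of their 3 h estimates.

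Set beside the 7 bead libraries of 3 h, which have vehicle libraries of their own and come from wild-type mice only, the 10 h estimates are given for wild-type beads. At 3 h 6 of 18212 genes were called (0.0329%), and none of the 16 genes called higher at 10 h was among them. Their median at 3 h was 0.36, with 15 of 16 positive. Their median in wild-type beads at 10 h was 0.85. Here too the genes were picked by 10 h values, so the larger median at 10 h is in part fixed by that choice. In wild-type beads Stat3 stood at 0.65 at 10 h and 0.43 at 3 h, Irf9 at 0.77 at 10 h and 0.43 at 3 h, Nlrc5 at 2.59 at 10 h and 0.08 at 3 h, and Cited1 at 0.85 at 10 h and 0.03 at 3 h. Arid5a, an RNA-binding protein of cytokine responses, stood at 0.52 at 10 h and 2.06 at 3 h, and the transcriptional repressor gene Etv6 at 0.26 at 10 h and 1.41 at 3 h. Socs3 stood at 1.46 at 10 h and 2.14 at 3 h, and Atf3, a stress-response transcription factor, at 2.19 at 10 h and 2.27 at 3 h. The difference of the leptin effect between 10 h and 3 h was called for 0 of 18212 genes (0%) by edgeR. There 1066 genes had an unadjusted p under 0.05, and DESeq2 called 0. In wild-type libraries alone edgeR also called 0, with 596 genes at an unadjusted p under 0.05. Time and sequencing run cannot be told apart in this difference.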

How the data were processed

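Per the labels' protocols, poly(A) RNA of samples with an integrity number of 8 or more was turned into unstranded libraries and read for 50 cycles from a single end. The aligner STAR 2.7.6a and genome build GRCm38.p6 are named, per the submitters' processing notes. The authors deposited raw whole-number counts per gene for 55487 genes, with no normalization; the sources used here do not name the counting program or its annotation release. Molecular identifiers are not described, so depth (21277982 to 42267040 counts per bead library) bounds counting error only.

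Counts were tested in R 4.3.3 with edgeR 4.0.16 (TMM scaling, a minimum of 10 counts in 3 or more libraries per gene, robust two-sided quasi-likelihood F test, Benjamini-Hochberg adjustment over all genes tested, threshold 0.05). Adjusted p-values are from edgeR except where DESeq2 or limma is named. The fit over both genotypes had terms for genotype and leptin and 4 residual degrees of freedom. Effects within a genotype and their difference came from 1 fit of the 4 groups, in which a lone library is given the spread of the replicated groups. Beads and depleted libraries were compared with the lysate as a block: in 5 lysates that could be checked the deviations of the pair correlated with r of 0.105 to 0.405, each best with its own partner. The 2 ob/ob vehicle lysates gave the same r of 0.405, since deviations within a group of 2 mirror each other. The 5 checks are therefore not independent. The difference between 10 h and 3 h came from a fit of all 14 bead libraries with a term for time and genotype stratum. DESeq2 1.42.0 and limma 3.58.1 served as alternatives. The scripts were tested on simulated data.

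The genes named in the text are the 15 with the largest change in each direction among called genes with a mean of at least 1 CPM and the same direction in both genotypes, the called members of 29 gene lists, the genes called within a genotype or in a difference, and Lepr, Pomc, Cartpt, Agrp, Npy, Socs3, Atf3, Arid5a and Etv6; other list members, Bcl11b and Gm13010 are named beside their counts. A few genes that the rule would name are not reported here. These libraries, genes and lists were chosen with earlier results of these data known. Gene positions come from a GENCODE annotation of GRCm38, in which 55227 of the 55487 IDs were found, and promoter sequences from RefSeq.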

Additional observations from a re-analysis of the deposited data

Results flagged for a closer look

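The leptin effect on Serpina3n differed between the genotypes by a test of the difference itself: it was 2.37 larger on the log2 scale in ob/ob beads (2.87) than in wild-type beads (0.50), with adjusted p = 0.029 by edgeR. The ob/ob leptin library stood at 271 CPM and the ob/ob vehicle libraries at 34.3 and 40.0 CPM, while the wild-type leptin libraries stood at 258 to 360 CPM and the wild-type vehicle library at 222 CPM. The genotypes were sequenced in different runs, and the result rests on 1 leptin library in ob/ob and 1 vehicle library in wild type. It was called in 3 of the 5 fits that left out 1 library, with values of 2.24 to 2.50, and missed the threshold without the third wild-type leptin library (2.46, adjusted p = 0.13) and without the second ob/ob vehicle library (2.50, adjusted p = 0.556).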

How the results depend on the processing

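The count of 75 called genes (16 higher, 59 lower) depended strongly on the settings. It was 8 (3 higher, 5 lower) with library totals alone, 304 (50 higher, 254 lower) with DESeq2, 562 (114 higher, 448 lower) with no filter on low counts, 4 (4 higher, 0 lower) as a contrast of 6 groups over all 14 bead libraries, 19 (7 lower) with 4 groups, 158 (140 lower) with no genotype term, and 0 (0 higher, 0 lower) with the glial covariate. Among alternatives chosen after seeing the data it was 2 (1 higher, 1 lower) with the forebrain covariate and 0 (0 higher, 0 lower) in a fit of leptin at 3 h and 10 h, where 1824 genes had an unadjusted p under 0.05. Leaving out 1 library gave 1 to 188 genes, 0 to 20 of them higher and 0 to 168 lower; DESeq2's size factors, limma voom, a filter of 50 counts and the non-robust fit gave 59 to 79. The cause of these shifts was not tested. All 75 genes kept their sign in these alternatives where present, except 3 with the glial covariate, among them Inf2 (0.005) and Slc4a4 (0.08), itself a member of the covariate. The lone wild-type vehicle and ob/ob leptin libraries could not be left out of the contrasts within a genotype. The count of 1 in wild-type beads became 0 with the 6 groups, 34 with DESeq2, 137 with no filter and 0 to 21 without 1 library. The count of 7 in ob/ob beads became 48 with DESeq2, 105 with no filter and 4 to 50 without 1 library. The count of 1 for the genotype difference became 0 with library totals, 0 with the 6 groups, 10 with no filter and 0 to 9 without 1 library. The 0 for beads minus depleted became 117 with DESeq2, 570 with no filter and 0 to 180 without 1 library, and stayed 0 with no replicate block, the only setting without the pairing by lysate. The 0 for 10 h minus 3 h became 119 with no filter. Values near 0 changed sign: Cartpt to -0.02 with library totals, 0.00 with no filter, -0.002 with a filter of 50 counts, -0.016 with 6 groups, -0.007 with 4 groups, -1.60 with the glial and -0.96 with the forebrain covariate, -0.001 in the fit of both times and -0.26 to 0.40 without 1 library. Npy went to 0.016 with limma voom, 0.74 with the glial and 0.35 with the forebrain covariate, and -0.12 to 0.14 without 1 library, Agrp to 0.48 and 0.16 with the same covariates, and Lepr to -0.11 without the ob/ob leptin library (range without 1 library -0.11 to 0.30).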

Other observations

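Several lists outside the account of the leptin response had values that lay mostly on one side without a call. Of 23 prohormone processing and secretory granule genes 19 had negative values, with a median of -0.12 and none called. Among them Scg2, a granin of secretory vesicles, had 664, 872 and 814 CPM in wild-type leptin beads and 807 CPM in ob/ob leptin beads, against 1003 CPM in wild-type vehicle beads and 1037 and 981 CPM in ob/ob vehicle beads (log2 -0.34, adjusted p = 0.294). Of 32 genes of the integrated stress response and ER chaperones 22 had negative values, with a median of -0.23 and none called, and in leptin beads 16 of the 32 (50%) lay below every vehicle library of the same genotype, against 14% of all genes tested. Canx, the ER chaperone calnexin, stood at -0.48 (adjusted p = 0.123) and Psat1, an enzyme of serine synthesis, at -0.44 (adjusted p = 0.16).

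Pmch, the precursor of melanin-concentrating hormone and a marker of lateral hypothalamic neurons, had 16.1, 13.6 and 14.4 CPM in wild-type leptin beads and 13.2 CPM in ob/ob leptin beads. It had 31.8 CPM in wild-type vehicle beads and 27.7 and 57.3 CPM in ob/ob vehicle beads. The groups did not overlap, and its effect of -1.37 missed the threshold (adjusted p = 0.0517). Of 31 immediate early and AP-1 genes 22 had positive values, with a median of 0.25 and none called. The median was 0.42 in wild-type beads and -0.002 in ob/ob beads. Without the lone wild-type vehicle library the median over both genotypes was -0.005. The third wild-type leptin library had the highest level of several of them, with Junb at 118 CPM there, against 41.2 and 38.4 CPM in the other wild-type leptin libraries, 49.0 CPM in the ob/ob leptin library, 19.0 CPM in the wild-type vehicle library and 26.6 and 32.0 CPM in ob/ob vehicle libraries. Lists of clock, cholesterol synthesis, and insulin and growth factor signalling genes held no called gene, with medians of -0.01, -0.19 and -0.07.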
